A study of Nothobranchius furzeri with 20 samples.

Results

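The brains of 10-week-old and 5-week-old turquoise killifish were compared here, with 5 libraries at each age out of 20 in the series. Members were chosen by the age label alone. All 20 libraries come from brain of male Nothobranchius furzeri of the GRZ strain. Age is the sample trait that the labels give as differing between the groups. The other libraries are 5 of 7 weeks and 5 of 14 weeks. The library titles also hold JG numbers of unstated meaning, lower in all 5-week than in all 10-week libraries. Age and what those numbers stand for cannot be told apart. RNA-seq libraries were made from total RNA with a TruSeq RNA v2 kit, per the labels' protocols, which does not keep the strand, so overlapping genes on opposite strands cannot be told apart. The labels do not say whether a library is 1 brain or a pool, so p-values measure the spread between these libraries.

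The turquoise killifish lives in seasonal ponds and matures and ages within months, and the GRZ strain is an inbred laboratory line with one of the shortest lifespans kept for any vertebrate. The adult fish brain goes on growing and forms neurons, an activity known to decline with age in this species. Bulk RNA averages all cells of the organ, so fewer cells of a type and less RNA per cell cannot be told apart. The count table lists identifiers without gene names, and 0 of its 26739 identifiers occur in the RefSeq table for NfurGRZ-RIMD1. Genes are therefore described by identifier, level, length and course, and brain cell markers could not be looked up.

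Library totals ran from 12.004 M to 27.1 M counts (M, mega) at 5 weeks and from 17.3 M to 23.8 M at 10 weeks. The libraries of 5-week replicates 4 and 5 stood apart from the others of the ages compared. Their median Spearman correlation with the other libraries was 0.955 in each, against 0.977 to 0.983 in the other 5-week libraries and 0.982 to 0.985 at 10 weeks. In the whole series 7-week replicate 3, which shares the fit, was lower still at 0.925. The library of 5-week replicate 5 had the lowest total of the series and the most genes with a read, 22938, against 21385 to 21862 in the other 9 libraries compared. That of 5-week replicate 4 had the highest share of counts in its own 10 most abundant genes, 5.01%. The calls and what describes them (size, level, length, separation of the ages) are given with all libraries first and then without 5-week replicates 4 and 5.

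Of the genes measured, 414 rose and 749 fell between 5 and 10 weeks by edgeR's quasi-likelihood test, with an adjusted p below 0.05. These were 2.13% and 3.85% of the 19474 genes tested, 5.97% together. The rises were small, with a median log2 fold change of 0.57 and a largest value of 1.92. With all libraries 40 rises passed 2-fold and none passed 4-fold. The falls were larger and more uneven, with a median of -0.77 and a lowest value of -7.59, and 290 passed 2-fold and 106 passed 4-fold. All 10-week libraries lay above all 5-week libraries in 309 of the 414 rises, and below them in 482 of the 749 falls. Full separation upward was seen in 6.26% and downward in 4.96% of all genes tested, whatever their p. The called genes were chosen on these same libraries, so separation among them partly follows from the call and is no further support.

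The sizes of the called changes moved with the young libraries. Without 5-week replicate 4, 17 rises and 227 falls passed 2-fold, and 69 falls passed 4-fold. Without replicate 5, 80 rises and 215 falls passed 2-fold, and 5 rises and 90 falls passed 4-fold. Without both, 62 rises and 138 falls passed 2-fold, and 4 rises and 46 falls passed 4-fold. They also moved with the libraries in the fit. A fit of only the 5- and 10-week libraries, all 10 kept, tested 18921 genes in place of 19474. There 115 rises and 199 falls passed 2-fold, and 1 rise and 28 falls passed 4-fold. The ages were fully separated in 156 of 168 rises and 421 of 481 falls without replicate 4, in 343 of 417 and 598 of 766 without replicate 5, and in 204 of 213 and 452 of 464 without both. Fewer libraries separate more easily. Of all genes tested, 6.77% were separated upward and 7.18% downward without replicate 4, and 8.25% and 7.42% without replicate 5. Without both, 10.8% of all genes tested were separated upward and 10.9% downward.

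**Figure D1:**
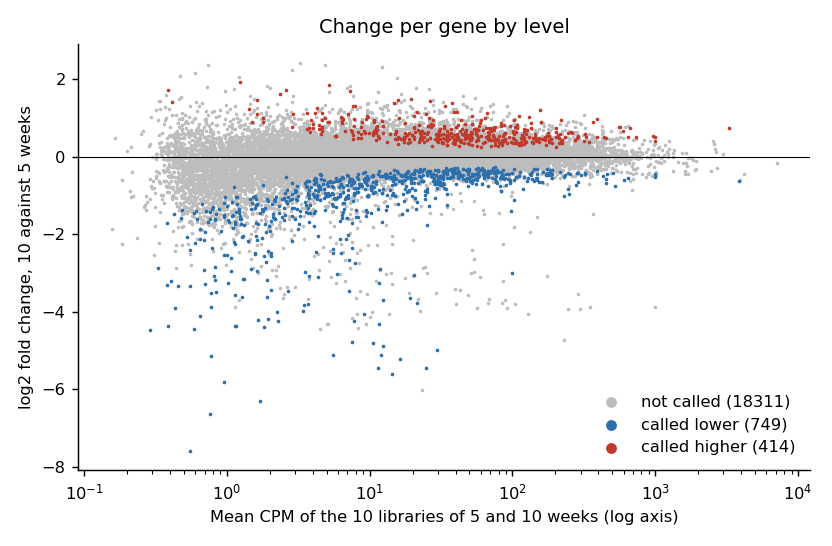
Log2 fold change between 10 and 5 weeks against the mean CPM (counts scaled to library size, log axis) of the 10 libraries of both ages, 1 point per tested gene. Called rises (414) lie mostly at 10 CPM or more (349 genes) and within 4-fold, while called falls (749) reach -7.59 and lie below 10 CPM in 368 genes; grey points far below 0 are falls that did not pass the test.

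With all libraries, rises made up a larger share of abundant than of scarce genes. Falls were most frequent between 1 and 10 CPM. The gap in level between rises and falls shrank without 5-week replicate 5 and turned without replicates 4 and 5. The median level over the 10 libraries was 43.3 CPM for the genes that rose, 10.4 CPM for those that fell and 17.5 CPM for all tested genes. Above 100 CPM, 107 genes rose and 64 fell, of 2382 tested (4.49% and 2.69%). Between 10 and 100 CPM, the largest class, 242 rose and 317 fell, of 9631 (2.51% and 3.29%). Between 1 and 10 CPM, 63 rose and 314 fell, of 6059 (1.04% and 5.18%). Below 1 CPM, 2 rose and 54 fell, of 1402 (0.143% and 3.85%). Of all tested genes, 2.13% rose and 3.85% fell, so falls below 1 CPM were no more frequent than among all genes. The median fall was -0.48 on the log2 scale above 100 CPM and -2.14 below 1 CPM. Changes of low genes rest on few reads. Without replicate 4 the median level was 48.2 CPM for the rises and 7.28 CPM for the falls. Without replicate 5 it was 25.6 and 21.5 CPM, and without both the order turned, with 16.6 CPM for the rises and 22.6 CPM for the falls. Above 100 CPM, 62 genes rose and 118 fell without replicate 5, of 2427 (2.55% and 4.86%). Without both, 19 rose and 82 fell there, of 2421 (0.785% and 3.39%). Over all levels, 417 rose and 766 fell of 19490 without replicate 5, and 213 and 464 of 19606 without both.

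The naming rule took only genes whose ages did not overlap and that were called with all libraries and without 5-week replicate 4 or 5. For the genes named below, those traits follow from the choice and are no further support. The gene with the largest rise under the naming rule was Nfu_g_1_021827, of 2369 bases. Its level was 1.43, 2.60, 2.27, 1.75 and 3.27 CPM in 5-week replicates 1 to 5, and 8.76, 9.23, 5.51, 5.14 and 11.9 CPM in 10-week replicates 1 to 5. The ages did not overlap, and the highest 5-week level was that of replicate 5. Its log2 fold change of 1.85 ± 0.37 (SE) passed the test (adjusted p = 0.0095 by edgeR). It was 1.75 without 5-week replicate 4 (edgeR adjusted p = 0.023), 2.01 without replicate 5 (0.0087) and 1.93 without both (0.024). At 7 weeks the gene stood at 4.14 ± 1.74 CPM (SD, n = 5) and at 14 weeks at 5.59 ± 2.55 CPM (SD, n = 5).

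The next largest rise was that of Nfu_g_1_009723, a short gene of 216 bases. It had 1.09, 0.914, 1.22, 1.83 and 0.946 CPM in 5-week replicates 1 to 5, and 3.47, 3.40, 3.87, 5.10 and 4.02 CPM in 10-week replicates 1 to 5. Here, too, the ages did not overlap, as the naming rule required. The log2 fold change was 1.71 ± 0.40 (SE; edgeR adjusted p = 0.019), and 1.90, 1.64 and 1.87 without 5-week replicate 4, replicate 5 and both (edgeR adjusted p = 0.021, 0.032 and 0.037). Over all alternatives the adjusted p ran from 0.00052 to 0.051, the highest by limma-voom, and the call was also lost without 10-week replicate 3 (log2 fold change 1.72). Its 7-week level was 2.41 ± 1.21 CPM (SD, n = 5), with 0.327 CPM in 7-week replicate 3 as the lowest of the 20 libraries.

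Nfu_g_1_007098, of 1095 bases, had the largest fall under the same rule. Its counts were 57, 69, 46, 5 and 30 reads in 5-week replicates 1 to 5, or 2.81, 3.32, 2.54, 0.195 and 2.18 CPM. In the 10-week libraries it had 1 to 4 reads, or 0.0478 to 0.171 CPM. The ages did not overlap, but 5-week replicate 4 was nearly as low as the 10-week libraries. The log2 fold change was -4.38 ± 0.75 (SE; edgeR adjusted p = 0.0062), -4.70 without replicate 4 (0.0021), -4.38 without replicate 5 (0.0064) and -4.78 without both (0.0031), all by edgeR. By limma-voom it was -3.68 with an adjusted p of 0.071, the highest of a range that began at 1.3e-06. That range covers 33 of 35 settings. The gene was not among those tested in the fit of only both ages, with all 10 libraries or without 5-week replicate 5. The gene did not stay low, since the 14-week libraries held 1.09 to 2.65 CPM.

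Nfu_g_1_023228, of 915 bases, fell and was at or near 0 in the oldest animals. It had 4.49, 2.07, 1.38, 1.09 and 1.89 CPM in 5-week replicates 1 to 5. In 10-week replicates 1 to 5 it had 0.0847, 0.17, 0.117, 0.129 and 0 CPM, 11 reads in all against 213 at 5 weeks. All 10-week libraries lay far below the lowest 5-week library. The log2 fold change was -4.36 ± 0.68 (SE; edgeR adjusted p = 0.0049), and -4.56, -4.40 and -4.65 without replicate 4, replicate 5 and both (edgeR adjusted p = 0.0027, 0.0035 and 0.0043). At 14 weeks 2 reads were counted over 5 libraries, and at 7 weeks the level was 1.57 ± 1.39 CPM (SD, n = 5).

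The libraries of 7 and 14 weeks are not in the contrast, but they shared its filter on low counts, scaling and estimate of spread. They were placed on the same scale. For each library the median deviation of the genes from their mean over the 5- and 10-week libraries was taken, in log2 CPM. For the 414 genes that rose it was -0.339, -0.153, -0.296, -0.331 and -0.248 in 5-week replicates 1 to 5, and 0.263, 0.328, 0.426, 0.266 and 0.157 in 10-week replicates 1 to 5. In 7-week replicates 1 to 5 it was -0.0472, -0.0801, -0.337, -0.0717 and 0.102. Thus 4 libraries of 7 weeks lay between the ages compared, and replicate 3 lay among the 5-week libraries. The 14-week libraries, at 0.0974 to 0.175, lay above all 5-week libraries, and 2 of them lay within the 10-week range. The genes were chosen for their difference between 5 and 10 weeks and measured from the mean of those ages. A library unrelated to that choice would also lie between them, so such a place alone shows no course with age.

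The 749 genes that fell mirrored the order of the rises, with the same limit from their choice. Their median deviation was 0.255 to 0.395 at 5 weeks and -0.48 to -0.19 at 10 weeks. It was -0.00914, 0.132, 0.366, 0.0903 and -0.0863 in 7-week replicates 1 to 5, and -0.328 to 0.000735 at 14 weeks. Replicate 3 of 7 weeks was again level with the 5-week libraries. Over all tested genes the median deviation stayed between -0.039 and 0.0145 in the 20 libraries.

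**Figure D2:**
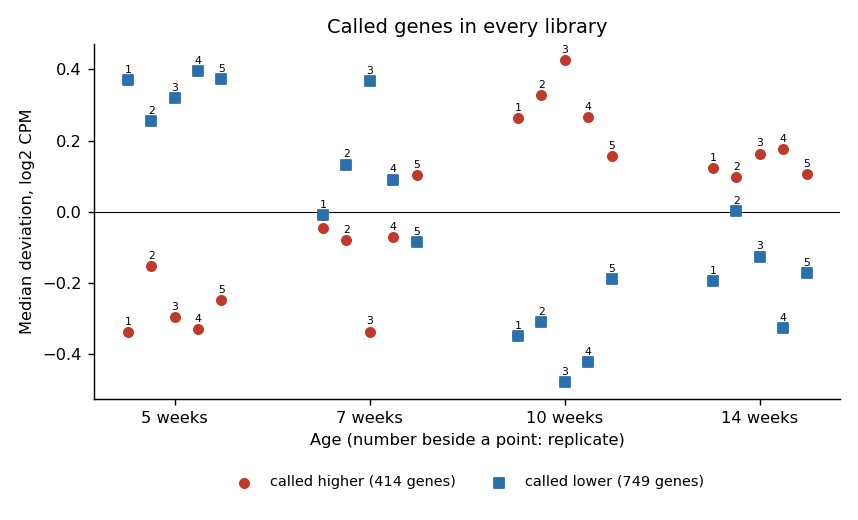
Median deviation (log2 CPM) of the genes called higher (circles, 414) and lower (squares, 749) from their mean over the 5- and 10-week libraries, in each of the 20 libraries, with replicate numbers. The 5- and 10-week libraries are apart by the choice of the genes, and a library unrelated to that choice would lie between them. Replicate 3 of 7 weeks lies with the 5-week libraries, at -0.337 and 0.366.

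The comparison of 14 with 7 weeks shares no library with that of 10 with 5 weeks, although both share 1 fit, and its 7-week arm holds replicate 3, which lay with the 5-week libraries. Of the 414 rises, 343 were also higher at 14 than at 7 weeks by the sign of the log2 fold change (82.9%, median 0.20), where 50.3% of all tested genes were (median 0.0024). Of these rises 42 were called higher there, 10.1% against 1.45% of all tested genes, and 1 was called lower. Of the 749 falls, 598 had a negative change (median -0.27), and 74 were called lower, 9.88% against 1.04% of all tested genes. None was called higher there. Without 7-week replicate 3 the shares were smaller, with 315 of the 414 rises positive (76.1%, median 0.155) and 567 of the 749 falls negative (75.7%, median -0.183). Then 46 rises were called higher and 65 falls lower, 11.1% and 8.68%, against 2.44% and 1.48% of all tested genes. The 414 and 749 genes were still those called with 7-week replicate 3 in the fit. Of the 1020 rises called without it, 596 were positive (58.4%, median 0.0492), little above the 50.8% of all tested genes. Of the falls called without it, 72.9% were negative (median -0.13), against 49.2% of all tested genes. Without 5-week replicate 4, replicate 5 or both, 81.9 to 82.9% of the same 414 rises were positive and 79.8 to 80.9% of the same 749 falls negative. The comparison of 14 with 7 weeks holds no 5-week library, so those shares could hardly move. In lists called anew without replicate 4, replicate 5 and both, 87.5, 85.6 and 89.1% of the rises were positive. Of the falls in those lists 74.5, 82.8 and 78.7% were negative. Genes vary together, so these shares are a description and carry no p.

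The 106 falls past 4-fold, 0.544% of the genes tested, did not share 1 course. Their log2 CPM over the 20 libraries fell into 2 groups of 49 genes, 1 group of 6 and 1 pair when the correlation tree was split at 0.5. The groups were formed after the values were seen and are described without a test.

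In the first group of 49 genes the high 5-week level came from replicates 4 and 5. The median of the group was 0.888, 0.626 and 0.83 CPM in 5-week replicates 1 to 3, then 30.3 CPM in replicate 4 and 3.71 CPM in replicate 5. It was 0.586 to 0.893 CPM at 10 weeks, so the first 3 young libraries stood within the 10-week range. Replicate 4 was the highest and replicate 5 the next of the 5-week libraries in 45 of the 49 genes. Of all tested genes, 6.57% had that order. Levels in replicate 4 reached 792 CPM, and the group held 0.333% of its counts, against 0.00603 to 0.00786% in the 10-week libraries. The median log2 fold change was -3.09. It was -1.21 without replicate 4, with 5 genes still called by edgeR, -3.12 without replicate 5, with 40 called, and -0.24 without both, with 1 called and 19 changed in sign.

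A further 129 genes had a log2 fold change below -2 but did not pass the test, and most had the same order at 5 weeks. Replicate 4 was the highest and replicate 5 the next in 102 of them. Their median level was 45.7 CPM in replicate 4, 4.36 CPM in replicate 5, 0.839 to 1.33 CPM in replicates 1 to 3 and 1.1 to 1.29 CPM in the 10-week libraries. They held 3.69% of the counts of replicate 4. Their median log2 fold change was -2.93 with all libraries, -0.28 without replicate 4 and 0.52 without both, where 92 of the 129 were positive.

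The second group of 49 genes was nearly silent at 10 weeks and present in 4 of the 5 young libraries. Its median was 1.43, 1.88, 1.77 and 2.76 CPM in 5-week replicates 1, 2, 3 and 5, but 0.195 CPM in replicate 4. The 10-week libraries held 0.169, 0.255, 0.176, 0.171 and 0.144 CPM, so that 5-week replicate 4 lay inside the 10-week range. Replicate 4 was the lowest 5-week library in 48 of the 49 genes, or 98.0%, against 19.3% of all tested genes. The 7-week libraries were split, with 0.371 and 0.205 CPM in replicates 1 and 2 and 1.27 to 2.15 CPM in the other 3. The 14-week libraries, at 1.48 to 1.97 CPM, were level with the young ones. The median log2 fold change of -3.28 was -3.58 without replicate 4, with all 49 genes called by edgeR, -2.91 without replicate 5, with 34 called, and -3.31 without both, with 41 called. Nfu_g_1_007098 belongs to this group.

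The third group held 6 genes that declined and remained low, Nfu_g_1_023228 among them. Its median was 1.88 to 4.71 CPM at 5 weeks, 1.07 to 5.47 CPM at 7 weeks, 0.293 to 0.574 CPM at 10 weeks and 0.087 to 0.44 CPM at 14 weeks. The ages of 5 and 10 weeks were fully separated in all 6 genes, in 15 of the 49 genes of the second group and in 6 of the 49 of the first. Of all tested genes, 4.96% were separated downward. The groups hold genes chosen as falls past 4-fold between these ages, so separation partly follows from that choice. The median log2 fold change was -2.95, and it was -2.92 without replicate 4, -3.14 without replicate 5 and -3.15 without both, with 5, 6 and 5 genes called by edgeR. All 6 were also called lower at 14 than at 5 weeks by edgeR (median -3.36), a comparison with the same 5-week libraries. So were 22 of the 49 genes of the first group and 0 of the second, 27.5% of the 749 falls and 1.47% of all tested genes. At 14 against 7 weeks, which shares no library, 3 of the 6 were called lower (median -2.91), against 1.04% of all tested genes.

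**Figure D3:**
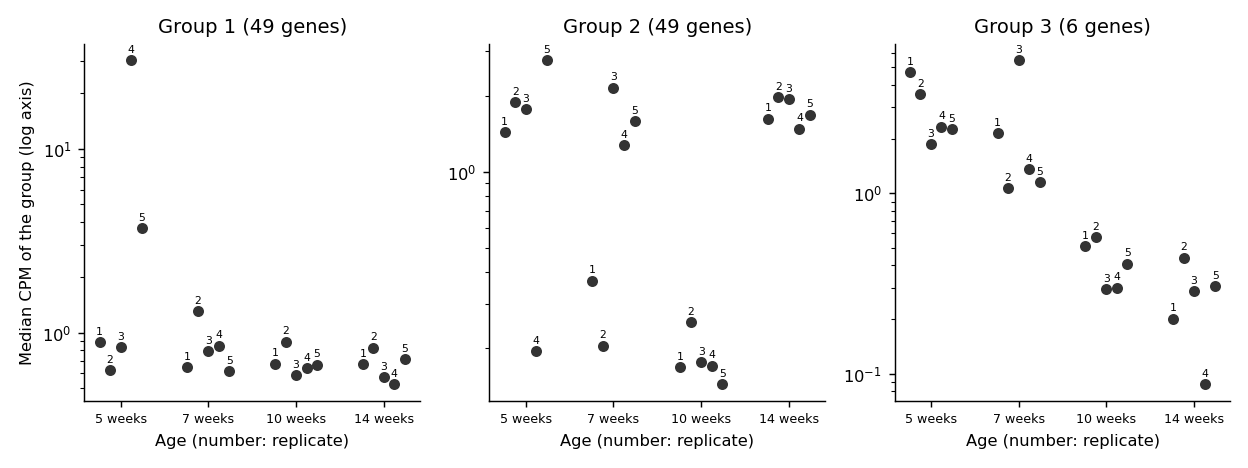
Median CPM (log axis) of the 3 larger groups among the falls past 4-fold, in each of the 20 libraries, with replicate numbers. The first group is high in 5-week replicates 4 (30.3 CPM) and 5 (3.71 CPM), the second is low at 10 weeks, in 5-week replicate 4 and in 7-week replicates 1 and 2, and the third is low at 10 and 14 weeks.

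The other 643 falls were below 4-fold, and the 459 below 2-fold were more evenly shared by the young libraries. Their median deviation was 0.317, 0.219, 0.294, 0.333 and 0.159 in 5-week replicates 1 to 5 and -0.371 to -0.124 at 10 weeks. Among all 749 falls, replicate 4 was the highest 5-week library in 235 genes, 31.4%, against 21.7% of all tested genes. For the rises it was the lowest in 128 of 414, 30.9%, against 19.3%. The lowest was 5-week replicate 1 in 115 of the rises, 27.8%, against 18.36% of all tested genes. At 10 weeks replicate 3 was the most extreme library. It was the highest in 216 of the 414 rises, 52.2% against 19.9% of all tested genes, and the lowest in 271 of the 749 falls, 36.2% against 20.06%.

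Genes that rose were longer than the tested genes as a whole, and less so without 5-week replicate 5. Their median length, solved from the deposited RPKM and counts, was 5005 bases, against 2609 bases for the genes that fell and 2664 bases for all tested genes. For the rises it was 5075.5 bases without 5-week replicate 4, 3834 without replicate 5 and 3635 without both, where the falls stood at 2908.5 bases and all tested genes at 2650. The 12013 genes of at least 10 CPM were put into 5 classes of length. Of the 2403 in the longest class (6113 bases or more), 143 rose and 23 fell, 5.95% and 0.957%. Of the 2403 in the shortest class (up to 1488 bases), 29 rose and 98 fell, 1.21% and 4.08%. Of all tested genes, 2.13% rose and 3.85% fell. Without both 5-week replicates 4 and 5, each of these classes held 2382 genes. Then 46 of the longest class rose and 27 fell, 1.93% and 1.13%. Of the shortest, 13 rose and 58 fell, 0.546% and 2.43%. Fewer genes were called in that setting, 213 rises and 464 falls of 19606 tested. The median log2 fold change went from -0.053 in the shortest to 0.17 in the longest class. Without both 5-week replicates 4 and 5 these medians were -0.093 and 0.10. Across these genes, which share the 10 libraries, the Spearman rho of length with the log2 fold change was 0.28, and it was 0.27 without replicate 4, 0.26 without replicate 5 and 0.25 without both.

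The same contrast was taken in each library, as the median deviation of the longest class minus that of the shortest, in log2 CPM. It was -0.0689, 0.00839, -0.208, -0.135 and -0.235 in 5-week replicates 1 to 5, and 0.0896, 0.156, 0.274, 0.0768 and -0.0429 in 10-week replicates 1 to 5. The ages overlapped through 5-week replicate 2 and 10-week replicate 5. The 5-week mean was -0.13 ± 0.10 (SD, n = 5) and the 10-week mean 0.11 ± 0.12 (SD, n = 5; two-sided exact permutation test, p = 0.016, 0.016 adjusted over 3 library measures). Without both 5-week replicates 4 and 5 the difference was 0.20 in place of 0.24 (exact permutation p = 0.071). This measure was added after the data were seen.

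The length contrast moved with the age groups and also with single libraries. It was lowest in 7-week replicate 3, at -0.645, where the rises were level with 5 weeks. In 7-week replicates 1, 2, 4 and 5 it was -0.0704, 0.0178, 0.139 and 0.176, and in 14-week replicates 1 to 3 it was 0.00703, 0.116 and 0.118. In 14-week replicates 4 and 5 it was -0.145 and -0.162, as at 5 weeks, while the rises stood at 0.175 and 0.105. With the length trend of each library removed by offsets, 347 genes rose and 966 fell by edgeR, and 289 of the 414 rises and 698 of the 749 falls kept their call. RNA integrity is not given in the labels, and its part in the length contrast was not tested.

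**Figure D4:**
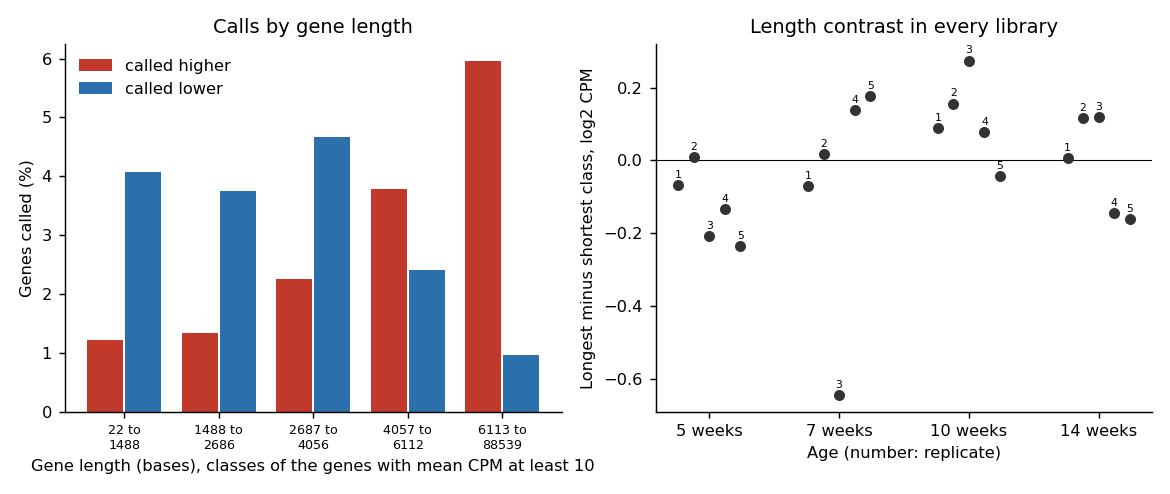
Left, percent of genes called higher or lower at 10 weeks in 5 classes of gene length (genes with a mean of at least 10 CPM). Right, longest minus shortest class in median deviation (log2 CPM) for each library, with replicate numbers. Rises go from 1.21% of the shortest to 5.95% of the longest class, and 7-week replicate 3 is lowest at -0.645.

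The young libraries varied more among themselves than the 10-week ones, through replicates 4 and 5. The distance of a library to the mean of its age, over all tested genes in log2 CPM, was 54.7, 50.04, 53.9, 80.5 and 86.8 in 5-week replicates 1 to 5. In 10-week replicates 1 to 5 it was 32.3, 33.7, 38.2, 40.7 and 46.4, below every 5-week library. The difference of the means was -26.9 (two-sided exact permutation test of 5 against 5, p = 0.0079, the smallest that the 252 assignments allow, 0.012 adjusted over 3 library measures). It was -19.1 without replicate 4 (exact permutation p = 0.016) and -16.8 without replicate 5 (exact permutation p = 0.032). The libraries of 1 age share the mean that they are measured from, so the 10 distances are not independent, as the permutation takes them to be. Replicates 4 and 5 move that mean and can also raise the distances of 5-week replicates 1 to 3. Without replicates 4 and 5 the difference was 0.165, the young mean being 38.1 ± 1.096 (SD, n = 3) and the older 38.3 ± 5.66 (SD, n = 5; exact permutation p = 1), though a mean of 3 libraries lies closer to its members. The median SD of a gene was 0.278 at 5 weeks, 0.18 over 5-week replicates 1 to 3 and 0.187 at 10 weeks, all in log2 CPM. An SD over 3 libraries tends to come out lower than one over 5, and these 3 remained after the most distant were removed.

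The share of counts in the 10 most abundant genes of a library fell from 4.02 ± 0.57% (SD, n = 5) at 5 weeks to 3.47 ± 0.092% (SD, n = 5) at 10 weeks. It was 3.63 to 5.01% in the 5-week libraries and 3.39 to 3.59% in the 10-week ones, without overlap. The two-sided exact permutation test gave p = 0.0079, the smallest that the 252 assignments allow (0.012 adjusted over 3 library measures). The share was 3.02 to 3.94% in the 7-week libraries and 3.11 to 3.95% in the 14-week ones, and each of these ranges overlapped those of 5 and 10 weeks. The difference of -0.55 percentage points was -0.301 without 5-week replicate 4 and -0.559 without replicate 5 (exact permutation p = 0.0079 in each), and -0.232 without both (exact permutation p = 0.036).

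How many genes were called depended on single libraries. Without 5-week replicate 4, edgeR called 168 genes higher and 481 lower. Of the first lists 161 rises and 439 falls kept their call, and 2 of the falls turned sign. Without 5-week replicate 5, it called 417 higher and 766 lower, and 285 rises and 573 falls kept their call. Without both, 213 were higher and 464 lower. Then 136 rises and 351 falls kept their call, no rise changed sign, and 19 falls did, all of them in the first group of 49 genes.

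Leaving out both young libraries lowered the count in the fit of all ages, from 1163 to 677, and raised it in a fit of only the 5- and 10-week libraries, from 1840 to 2574. Leaving out replicate 4 alone lowered it in both fits, and leaving out replicate 5 alone raised it in both, by little in the fit of all ages. The fit of both ages called 830 genes higher and 1010 lower with all 10 libraries, 783 and 759 without replicate 4, 1182 and 1317 without replicate 5, and 1229 and 1345 without both. The excess of falls over rises was thus small there, and absent without replicate 4. The median log2 fold change of the 414 rises stayed between 0.54 and 0.56 in these fits, and that of the 749 falls between -0.75 and -0.68.

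Libraries other than replicates 4 and 5 moved the count as much. Omitting 5-week replicate 1 gave 675 calls, and omitting 10-week replicates 1 to 4 gave 498, 482, 272 and 507. Leaving out 7-week replicate 3, which is not in the contrast, gave 2662 calls. It enters through the estimate of spread, the filter and the scaling, and without it the genes tested went from 19474 to 19588 and the median log2 fold change of the 414 rises from 0.57 to 0.56. Of the 414 rises 82, and of the 749 falls 176, were called whichever of the 20 libraries was left out.

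**Figure D5:**
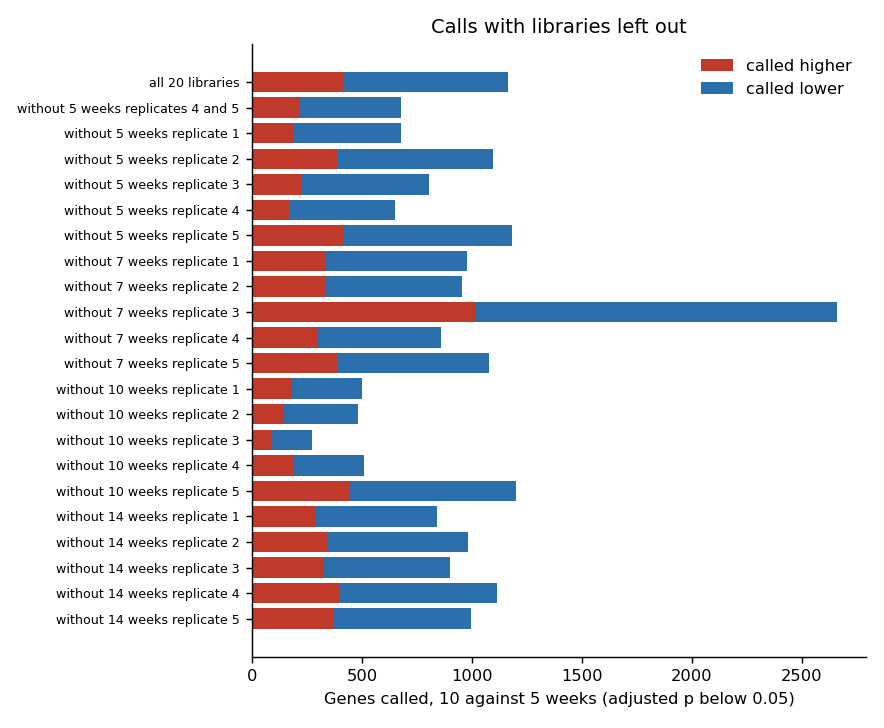
Genes called higher and lower at 10 against 5 weeks (adjusted p below 0.05, edgeR) with all 20 libraries, without both 5-week replicates 4 and 5, and without each library in turn. The total is 1163 with all libraries, 272 without 10-week replicate 3 and 2662 without 7-week replicate 3.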

How the data were processed

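RNA-seq of brain was deposited as a count table and an RPKM table. Per the submitters' processing notes, the tools were featureCounts 1.4.6-p4, STAR 2.4.1d and CASAVA 1.8.2; genome build, annotation and strand setting: not given in the sources used here. The deposited counts are raw reads per identifier, in 20 libraries of 4 ages. The authors' RPKM values were found to be scaled by library totals rotated over 25 places (99.975% of nonzero values returned within 0.0011), so they served only to solve gene lengths. Replicate numbers follow accession order.

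In R 4.3.3, counts were tested with edgeR 4.0.16 (TMM, filterByExpr, robust quasi-likelihood fit of all 20 libraries, 1 mean per age, Benjamini-Hochberg over 19474 genes). CPM uses TMM-scaled totals, and log2 CPM a prior count of 2. SE is the log2 fold change over the square root of F. Library values were tested by exact permutation. The code was tested on simulated data. Library pairs of 1 age differed by more than sampling noise.

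The comparison and lists were chosen with earlier results of these data known. Named genes had at least 1 CPM, an edgeR adjusted p below 0.05 with all libraries and without 5-week replicate 4 or 5, and ages that did not overlap (139 rises, 287 falls); without gene names, the 2 largest in each direction are printed. The cell marker lists could not be used. Alternatives were DESeq2 1.42.0 and its size factors, 2 filters, limma-voom (limma 3.58.1) with and without library weights, sva 3.50.0, no robust step, fits of both ages only and libraries left out; the length correction, single libraries left out of the fit of both ages, and levels, lengths and 14-against-7-week shares without a library were added after seeing the data.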

Additional observations from a re-analysis of the deposited data

Results flagged for a closer look

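Within the groups of 5 libraries, 28 sets of values were searched for a library far from the other 4, and 5 had one. Chance alone marks about 1 in 20 where sets are independent and normally spread, but these sets share libraries. Nfu_g_1_023228 stood at 4.49 CPM in 5-week replicate 1, above the other young libraries. The share of counts in the 10 most abundant genes was 5.01% in 5-week replicate 4. The scaling factor of 5-week replicate 5 was 1.15, the highest of its age. The median of the first group of falls past 4-fold was 30.3 CPM in 5-week replicate 4, and that group was itself formed from these libraries. The median of the second group was 0.255 CPM in 10-week replicate 2, the highest of a low range. The second group and Nfu_g_1_023228 were likewise chosen from these libraries.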

How the results depend on the processing

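The 1163 calls numbered 1919 by DESeq2, 3716 by limma-voom with library weights, 1840 with only both ages in the fit, 2499 there without 5-week replicate 5, 677 without 5-week replicates 4 and 5 and 2574 without both in the fit of both ages. With single libraries left out they ranged from 272 to 2662. Rises were 35.6% of the calls, 45.5% with library weights, 45.1% with both ages only and 50.8% there without replicate 4. In the fit of all ages their share was 25.9% without 5-week replicate 4 and 27.4% without 5-week replicate 1. With the length trend of each library removed it was 26.4%. The distance difference of -26.9 turned to 0.165 without replicates 4 and 5, and was -30.8 to -16.8 with single libraries left out. The length contrast of 0.238 was 0.199 without both (exact permutation p = 0.071) and 0.197 to 0.277 with single libraries left out; the difference in the share of the 10 most abundant genes was -0.647 to -0.301. The named genes kept their direction in every setting where they were tested. Nfu_g_1_009723 lost its call by limma-voom and without 10-week replicate 3, and Nfu_g_1_007098 by limma-voom. Why a setting moved the count was not tested. No paired analysis was possible because replicate numbers follow accession order and pair nothing. Genes with few reads limit what depth can show at low levels.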
